A study of Rattus norvegicus with 6 samples.

Results

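The miR-99/100 and miR-125 families were described in tendon-derived stem cells of the rat kept with or without mechanical loading. The 5 members were taken by name from the miRNA array: rno-miR-99a, rno-miR-99b and rno-miR-100 of the one family, and rno-miR-125a-5p and rno-miR-125b-5p of the other, written here without the prefix rno, which stands for the rat. They are 5 of the 677 miRNAs on the array and 5 of the 148 that were detected often enough to be tested. The rule used names alone, and the opposite arms of the hairpins (names with a star or with 3p) were kept apart.

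The study asked how miRNAs of rat tendon-derived stem cells (rTDSCs) respond to stretching. The cells came from the patellar tendon of male Sprague Dawley rats aged 8 weeks and were used at passage 3. In the loading group they were stretched to 10% elongation at 0.5 Hz for 8 h per day over 7 days, and in the non-loading group they were cultured for the same 7 days without stretch. Each group had 3 arrays, 6 in all. No gene was altered in either group. Nothing states that the 3 samples of a group came from separate cultures or animals, so the p-values below measure only the spread between these samples, which may be technical.

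miRNAs are short RNAs that guide the Argonaute proteins to messenger RNAs, mainly by pairing of their seed, the bases near the 5′ end. The miR-99/100 family is known for repressing MTOR and IGF1R, and the miR-125 family, the mammalian relatives of the worm timing miRNA lin-4, for repressing LIN28. In mammals both families lie in shared clusters with let-7, another family that marks differentiated cells and is itself held back by LIN28.

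The mature sequences show why the members are grouped. They were taken from the RefSeq table of the GRCr8 assembly, which held an entry for 4 of the 5 members (all but miR-99a), and the capitals mark the seed, bases 2 to 8 from the 5′ end.
miR-99b: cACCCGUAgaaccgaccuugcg
miR-100: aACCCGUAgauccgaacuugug
miR-125a-5p: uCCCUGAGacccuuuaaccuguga
miR-125b-5p: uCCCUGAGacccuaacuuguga
let-7c: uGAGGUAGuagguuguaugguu
let-7e: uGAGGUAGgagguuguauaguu
let-7a: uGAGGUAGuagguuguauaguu

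miR-99b and miR-100 shared their whole seed, as did miR-125a-5p and miR-125b-5p. Outside the seed, miR-99b and miR-100 differed at 4 of 22 bases, the substitutions from miR-99b to miR-100 being C1A, A11U, C16A and C21U, counted from 1 at the 5′ end. miR-125a-5p, of 24 bases, and miR-125b-5p, of 22 bases, shared their first 13 bases and had an edit distance of 3. The let-7 sequences are shown because these 3 forms neighbour the members. let-7c and let-7a differed by G19A alone, and let-7e and let-7a by G9U alone. Of the 693 mature miRNAs in the table, 2 carried the seed ACCCGUA, 3 carried CCCUGAG and 9 carried GAGGUAG.

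In the gene table of that assembly the hairpins formed 3 clusters, each with 1 let-7 gene between the 2 families. Mir99b lay 95 bases from Mirlet7e, which lay 353 bases from Mir125a. Mir99a lay 639 bases from Mirlet7c1, and Mir125b2 lay 44366 bases beyond it. Mir100 lay 6828 bases from Mirlet7a-2, and Mir125b1 lay 44737 bases beyond that. The array's miR-125b-5p signal therefore has a pair of source loci, one in the miR-99a cluster and one in the miR-100 cluster, which the mature sequence cannot tell apart. The array was annotated on an older build, so no coordinates are given.

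Signals, with the probes of a miRNA summed, are given as percent of a scale taken from each array, namely the 75th percentile of the 173 probes that all 6 arrays detected. All 5 members were detected on all 6 arrays. Levels of different miRNAs cannot be compared on an array, because probes differ in how they bind, and each member is compared only with itself between groups. In these bulk samples, fewer cells that hold a miRNA and less of it per cell cannot be told apart.

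**Figure D1:**
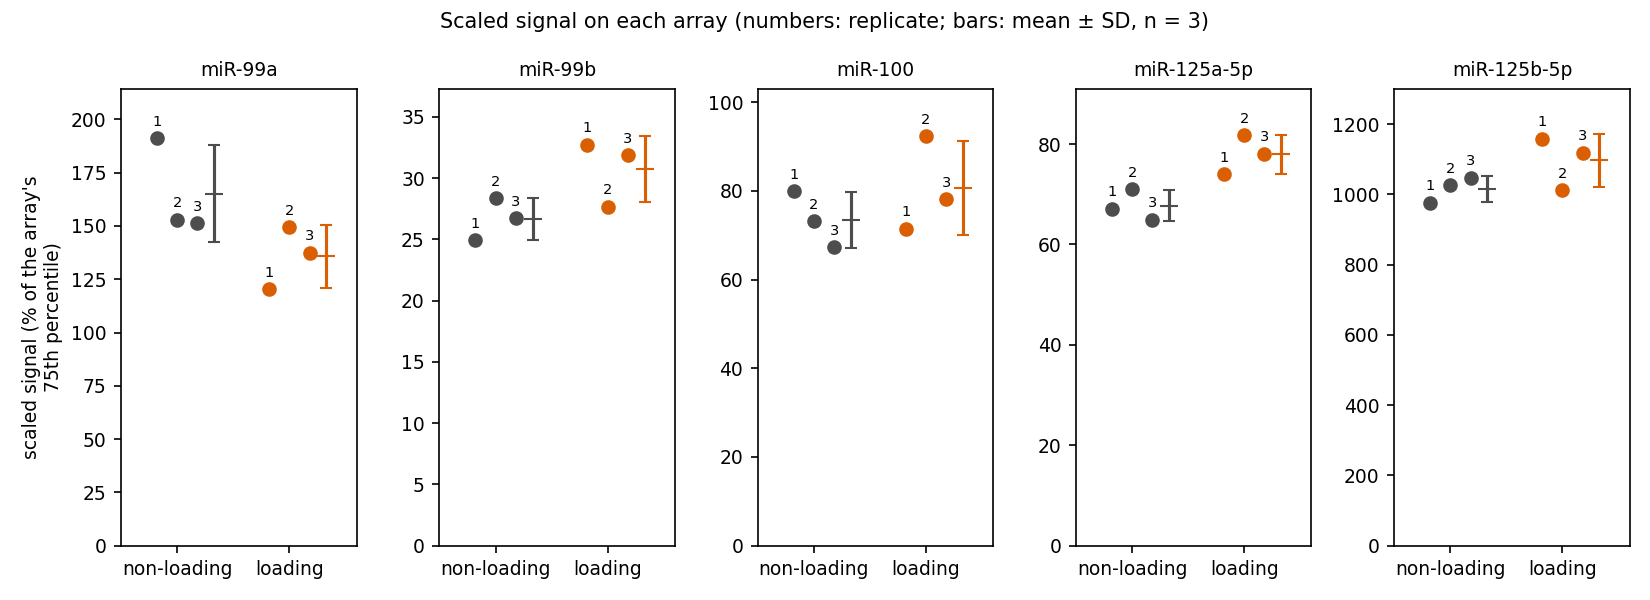
Scaled signal of each member (y axis, percent of the array's 75th percentile, linear from 0 with its own range per panel) on the 3 non-loading and 3 loading arrays; numbered points are arrays and bars are the mean ± SD. miR-99a sits lower on the loading arrays and miR-125a-5p higher, each without overlap, and the other 3 members overlap between the groups.

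No member passed the test. After Benjamini-Hochberg adjustment over the 148 miRNAs tested with limma, 0 of the 5 members had an adjusted p under 0.05, as did 0% of all miRNAs tested. At an unadjusted p under 0.05, 1 of the 5 members (miR-125a-5p, higher with loading) stood beside 14 of the 148 miRNAs, or 9.46%, of which 8.78% of the 148 were higher and 0.676% lower. This split of 13 higher and 1 lower depended on the scaling: it was 8 and 5 with quantile normalization, 3 and 5 with the total gene signal, 0 and 1 with the percentile over all probes, 3 and 1 without scaling, and 9 and 2 with arrays centred on their median. The methods' test, with pooled variance and the same adjustment, called 2 of the 148 miRNAs and none of the members. Without adjustment it called 15 miRNAs, 14 higher and 1 lower with loading, and among the members miR-125a-5p (p 0.0222). The groups did not overlap for 2 members, miR-99a and miR-125a-5p, against 23 of 148 miRNAs, or 15.5%. miR-125a-5p was on the higher side, with 12.8% of the 148, and miR-99a on the lower side, with 2.7%. This separation depended on the processing. miR-99a overlapped under both forms of normexp background correction, with the percentile over all probes and with the brightest probe. miR-125a-5p overlapped under normexp, with the percentile over all probes, without scaling and with the total gene signal. In the other direction, miR-99b did not overlap under normexp with outlying background replaced. The mean was higher with loading for 4 members and lower for 1, with a median log2 change of 0.13, and 66.9% of all tested miRNAs had a higher mean, with a median of 0.06. With 3 arrays against 3, an exact two-sided permutation test cannot give a p below 0.1.

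miR-99a, the member with the lower mean under loading, stood at 191%, 153% and 151% on non-loading arrays 1, 2 and 3. On loading arrays 1, 2 and 3 it stood at 120%, 149% and 137%. All loading arrays lay below all non-loading arrays, but the gap between the lowest non-loading and the highest loading array was small beside the distance of non-loading array 1 from the other two. The mean was 165% ± 22.6 (SD, n = 3) without and 136% ± 14.7 (SD, n = 3) with loading. The log2 change was −0.28 ± 0.13 (SE), with a 95% interval from −0.61 to 0.046 and an adjusted p of 0.606 by limma. The change was −0.17 without non-loading array 1 and −0.20 without loading array 1, so each of these arrays carried a large part of it.

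miR-100, the paralog from the cluster of let-7a, stood at 79.9%, 73.2% and 67.3% on the non-loading arrays. It stood at 71.5%, 92.4% and 78.2% on the loading arrays. The groups overlapped, with loading array 2 above and loading array 1 inside the range of the non-loading arrays. Its log2 change was 0.13 ± 0.12 (SE), with a 95% interval from −0.17 to 0.43 and an adjusted p of 0.724 by limma. It was 0.029 without loading array 2 and 0.21 without loading array 1.

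miR-99b, the paralog that lies beside let-7e and miR-125a, stood at 24.9%, 28.4% and 26.7% on the non-loading arrays. It stood at 32.7%, 27.7% and 31.9% on the loading arrays, where array 2 lay below non-loading array 2 and the other two lay above all non-loading arrays. The log2 change was 0.20 ± 0.10 (SE), with a 95% interval from −0.041 to 0.45 and an adjusted p of 0.606 by limma. Under normexp with outlying background replaced the groups did not overlap, at a change of 0.12 and an unadjusted p of 0.0632 by limma. In 1 of the fits with an array left out, the unadjusted p by limma was under 0.05.

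miR-125a-5p, the miR-125 form of the let-7e cluster, stood at 67.1%, 71.0% and 64.9% on the non-loading arrays. It stood at 74.0%, 81.7% and 78.1% on the loading arrays, all above the highest non-loading array. The mean was 67.7% ± 3.09 (SD, n = 3) without and 77.9% ± 3.88 (SD, n = 3) with loading. The log2 change was 0.20 ± 0.08 (SE), a ratio of 1.15, with a 95% interval from 0.0071 to 0.40. Its unadjusted p of 0.0443 was the 13th smallest of 148, and the adjusted p was 0.486 by limma. When the 2 probes were averaged on the log2 scale in place of being summed, the change was 0.22 and the adjusted p was 0.0434. Over the other ways of processing, the adjusted p lay above the threshold. The unadjusted p by limma was also above 0.05 under normexp (0.782, or 0.0674 with outlying background replaced), with the percentile over all probes (0.886), without scaling (0.353), with the total gene signal (0.311), with arrays centred on their median (0.0904), with the brightest probe (0.0525) and with array weights (0.0503). It was 0.0926 with the replicate block and 0.0755 with the slide column as a block. With the slide row as a block the change was 0.13. That value rested on loading array 1 alone, because the other row held no non-loading array. The unadjusted p was 0.115 without non-loading array 1, 0.0850 without non-loading array 3, 0.120 without loading array 2 and 0.119 without loading array 3.

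miR-125b-5p, the form encoded at both other clusters, stood at 976%, 1026% and 1047% on the non-loading arrays. It stood at 1158%, 1013% and 1120% on the loading arrays, where array 2 lay inside the non-loading range and the other two above it. The log2 change was 0.11 ± 0.09 (SE), with a 95% interval from −0.10 to 0.32 and an adjusted p of 0.724 by limma.

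**Figure D2:**
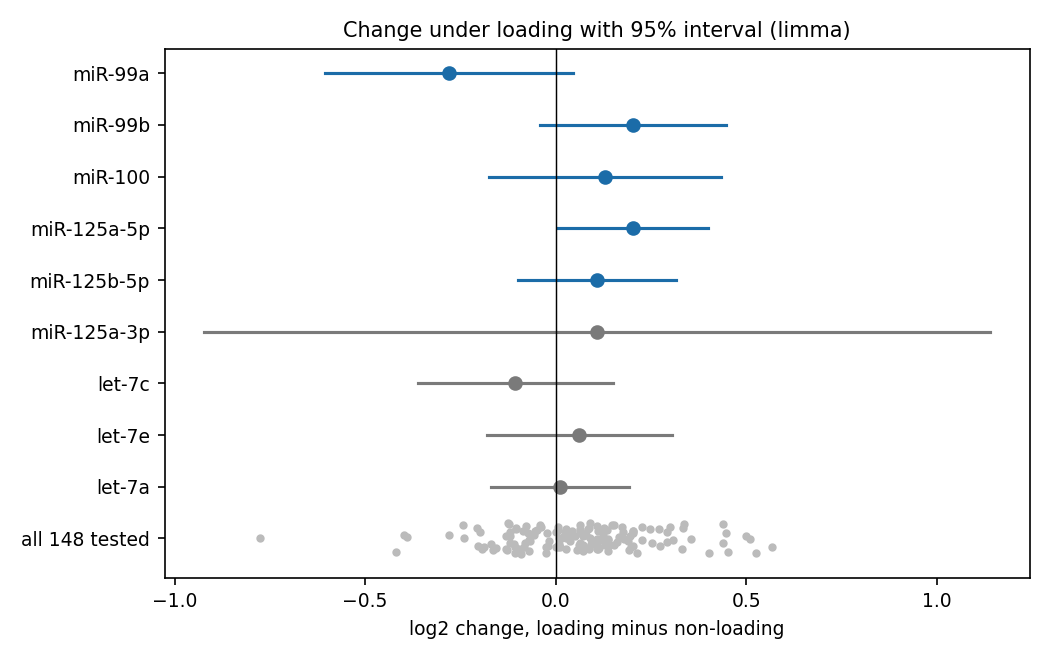
Log2 change (x axis, loading minus non-loading) of the members and of the let-7 forms and opposite arm described beside them; points are limma estimates and bars their 95% intervals, and the lowest line holds the estimates of all 148 miRNAs tested. The interval of miR-125a-5p starts at 0.0071 and those of the other 4 members include 0.

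The processing moved these directions. The change of miR-99a ran from −0.45 to −0.21 over the alternatives with no array left out, several of which cannot move it, and its lowest adjusted p over these was 0.376 by limma. Its unadjusted p by limma, 0.0803 as reported, was under 0.05 with the total gene signal (0.0167), with arrays centred on their median (0.0447), with a robust trend (0.0458) and with array weights (0.0497). The changes of miR-99b and miR-125a-5p were 0.049 each with the percentile over all probes and 0.10 each with the total gene signal. With the slide row as a block they were 0.30 and 0.13. Both means were higher with loading except under normexp background correction, where the changes were −0.32 ± 0.67 (SE) and −0.15 ± 0.53 (SE). When outlying background was replaced first, the 5 members had the signs reported above, at −0.21 for miR-99a, 0.12 for miR-99b, 0.10 for miR-100, 0.15 for miR-125a-5p and 0.10 for miR-125b-5p. miR-100 was −0.19 ± 0.53 (SE) under normexp without that replacement and −0.024 ± 0.34 (SE) with the percentile taken over all probes. It was −0.036 with the slide row as a block. miR-125b-5p was −0.046 ± 0.34 (SE) with the percentile over all probes and had a higher mean with loading in every other alternative tried. The size of its change moved, to 0.0060 with the total gene signal, 0.020 with quantile normalization and 0.056 without scaling. It was 0.19 with the slide row as a block and 0.38 ± 0.54 (SE) under normexp. The median change of all tested miRNAs was 0.06 as reported, −0.45 under normexp, 0.04 under normexp with outlying background replaced and −0.09 with the percentile over all probes. Relative to that median, miR-99a stood at −0.34 as reported, 0.21 under normexp, −0.25 with outlying background replaced and −0.34 with the percentile over all probes. It ran from −0.52 to −0.26 over the other alternatives that kept all arrays. The other members, relative to the median under normexp, were 0.13 for miR-99b, 0.26 for miR-100, 0.30 for miR-125a-5p and 0.83 for miR-125b-5p. As reported these were 0.14, 0.07, 0.14 and 0.04. With the percentile over all probes miR-100 stood at 0.07 and miR-125b-5p at 0.04. With the slide row as a block miR-100 stood at −0.11.

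**Figure D3:**
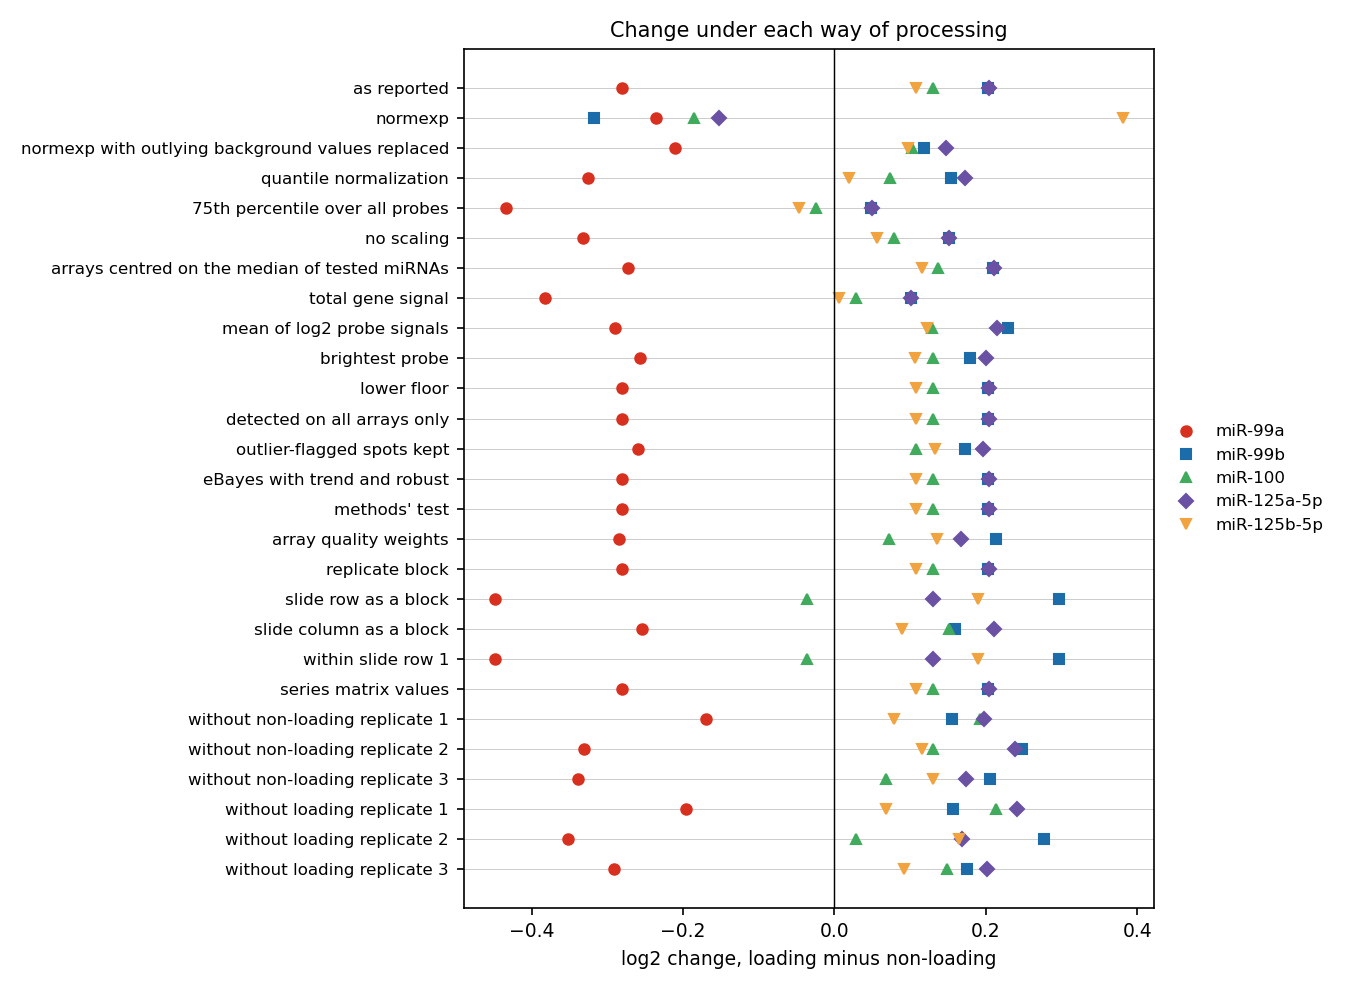
Log2 change (x axis, loading minus non-loading) of the 5 members under each way of processing, one per line of the y axis. miR-99a stays left of 0 throughout, and normexp, the percentile over all probes and the slide row move other members across 0.

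Paralogs were set against each other by their log2 ratio on the same array, which removes any factor shared by the whole array. In 7 ratios compared, the exact permutation p was adjusted over the 7. The ratio of miR-99a over miR-100 was 1.26, 1.06 and 1.17 on the log2 scale on non-loading arrays 1, 2 and 3, and 0.75, 0.69 and 0.81 on loading arrays 1, 2 and 3. The groups stood well apart on this ratio, with every loading array below every non-loading array. The mean ratio was 1.16 ± 0.10 (SD, n = 3) without and 0.75 ± 0.06 (SD, n = 3) with loading, a difference of −0.41 ± 0.07 (SE). The exact two-sided permutation p was 0.1, the smallest that 3 against 3 allows, and 0.35 after adjustment. Of all 10878 ratios between tested miRNAs, 16.3% did not overlap between the groups.

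Scaling an array cannot move this ratio. It was −0.31 under normexp with outlying background replaced, −0.40 with quantile normalization, −0.42 with probes averaged on the log2 scale, −0.39 with the brightest probe and −0.37 with flagged spots kept, and it ran from −0.46 to −0.36 as each array was left out. Under normexp it was −0.051 and the groups overlapped. Such a ratio concerns how the 2 miRNAs stood against each other and not which of them moved.

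The ratio of miR-125a-5p over its cluster neighbour let-7e was the other one without overlap. It stood at −2.41, −2.33 and −2.28 on the non-loading arrays and at −2.14, −2.24 and −2.21 on the loading arrays, a difference of 0.14 ± 0.05 (SE) with an exact permutation p of 0.1, or 0.35 adjusted. All loading arrays were higher, though loading array 2 lay close to non-loading array 3. The groups overlapped under normexp, where the difference was −0.26, and with quantile normalization, where it was 0.11 with an exact permutation p of 0.4.

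The other 5 ratios overlapped between the groups as reported. For miR-99a over miR-99b the difference was −0.48 ± 0.23 (SE), with an exact permutation p of 0.2. The groups did not overlap on it with the brightest probe (−0.44) or under normexp with outlying background replaced (−0.33), each with an exact permutation p of 0.1, and it was −0.74 with the slide row as a block. miR-125a-5p over miR-125b-5p differed by 0.10 ± 0.11 (SE) with an exact p of 0.4, and did not overlap with quantile normalization (0.15, exact p 0.1). miR-99b over miR-100 differed by 0.07 ± 0.21 (SE) with an exact p of 0.7, and by 0.33 with the slide row as a block. For miR-99b over miR-125a-5p, which share a cluster, the difference was −7.5e-04 ± 0.12 (SE), and the error leaves room for differences in either direction. miR-99b over let-7e differed by 0.14 ± 0.16 (SE) with an exact p of 0.4.

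**Figure D4:**
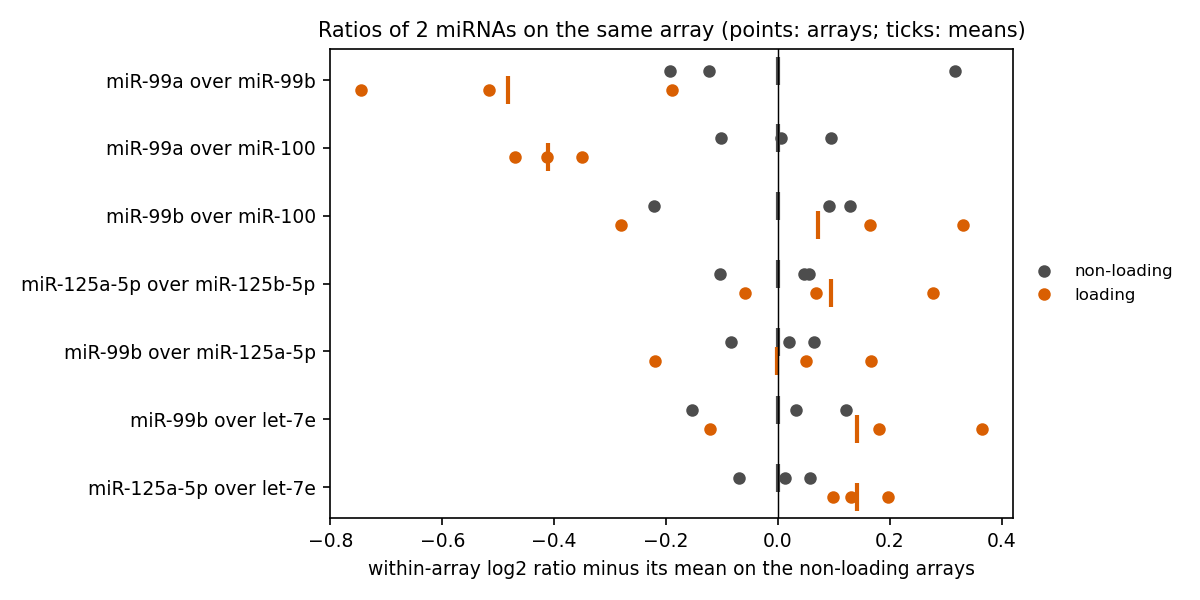
Log2 ratio of 2 miRNAs on the same array minus its mean on the non-loading arrays (x axis), for the 7 ratios compared (y axis); points are arrays and ticks are group means. The miR-99a over miR-100 and miR-125a-5p over let-7e ratios do not overlap between the groups.

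Each member was read by 2 probes of 10 spots per array. All 10 probes were detected on all arrays, and both probes of a member pointed the same way in 5 of 5 members. For miR-99a the log2 change was −0.26 by the brighter probe, with overlap, and −0.32 by the dimmer, without overlap. For miR-125a-5p both probes were without overlap, at 0.20 for the brighter and 0.23 for the dimmer. The 2 probes gave 0.18 and 0.28 for miR-99b, 0.13 and 0.13 for miR-100, and 0.11 and 0.14 for miR-125b-5p. Probes of 1 miRNA share its RNA and are not replicates. Whether a probe also bound the paralog was not tested.

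**Figure D5:**
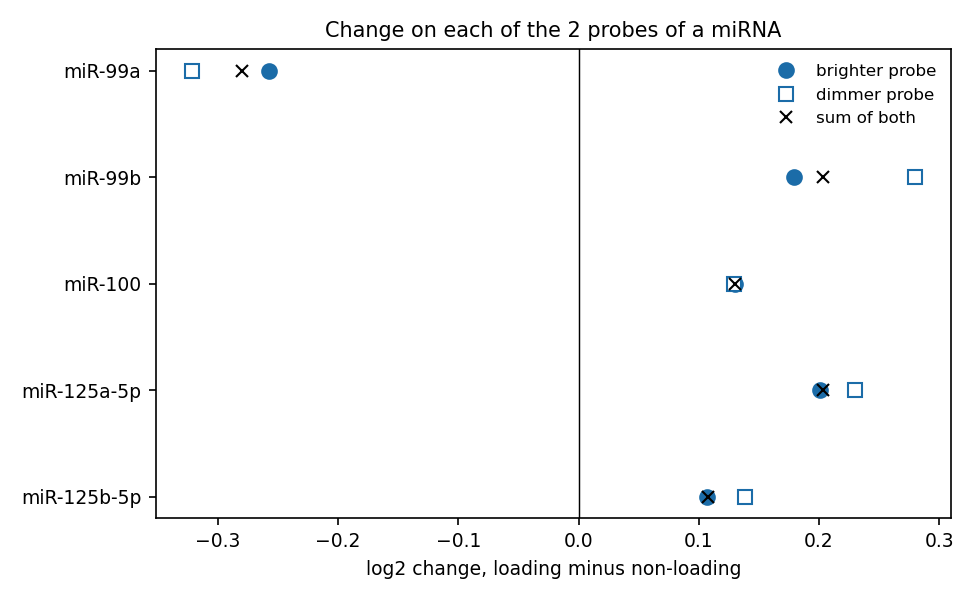
Log2 change (x axis, loading minus non-loading) by the brighter and the dimmer probe of each member (y axis), with a cross for their sum. Both probes fall on the same side of 0 for all 5 members, with miR-99a on the lower side.

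The error within an array was set beside the spread between arrays. The standard error over the spots, as a median over arrays, was 1.12% of the signal for miR-99a, 2.47% for miR-99b, 1.26% for miR-100, 1.43% for miR-125a-5p and 2.63% for miR-125b-5p. The coefficient of variation between arrays, non-loading and then loading, was 13.7% and 10.8% for miR-99a, 6.44% and 8.80% for miR-99b, 8.62% and 13.2% for miR-100, 4.56% and 4.98% for miR-125a-5p, and 3.60% and 6.88% for miR-125b-5p. It was above the median spot error in both groups for these members, but the spot error of miR-125b-5p reached 7.53% on its worst array, above both of its coefficients. The lowest signal of any member's probe, the dimmer miR-99b probe, was 6.38 times the SD of the negative-control spots of its array. Of the 120 spots of each member over all arrays, miR-99b had 114 well above background and miR-125a-5p had 118. For miR-125a-5p, 18 of 20 were well above background on loading array 2. miR-99a, miR-100 and miR-125b-5p had all 120.

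All arrays lay on 1 slide, and their places did not balance the groups. The 3 non-loading arrays and loading array 1 filled row 1, and loading arrays 2 and 3 lay in row 2. Within row 1, loading array 1 differed from the non-loading mean by −0.45 for miR-99a, 0.30 for miR-99b, −0.036 for miR-100, 0.13 for miR-125a-5p and 0.19 for miR-125b-5p on the log2 scale. This rests on 1 loading array and has no test of its own. With the column held, the change in columns 1 and 2 was −0.36 and −0.15 for miR-99a, 0.15 and 0.17 for miR-99b, and 0.21 and 0.094 for miR-100. It was 0.28 and 0.14 for miR-125a-5p, and 0.053 and 0.13 for miR-125b-5p. Each member had one sign in both columns. In both columns the non-loading array lay in row 1 and the loading array in row 2, so loading and row cannot be told apart there. The arrays in column 1, non-loading 1 and loading 2, were the highest of their groups for both miR-99a and miR-100. The part of slide position in the changes was not tested further.

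Over the 6 arrays, the members followed several patterns, given as a description because the points share arrays and groups. miR-99a followed let-7c (Pearson r 0.94), and nearly as closely let-7b (r 0.93) and let-7d (r 0.90), which are not the let-7 forms of these clusters, and ran against miR-99b (r −0.92) and miR-125b-5p (r −0.92). miR-99b followed miR-125b-5p (r 0.94), less closely its cluster neighbour miR-125a-5p (r 0.54), and not its cluster neighbour let-7e (r −0.13). miR-125b-5p ran against let-7c (r −0.95), let-7a (r −0.66) and miR-100 (r −0.39) of its own clusters, and as strongly against let-7b (r −0.95). miR-100 followed let-7i (r 0.94), which is not a let-7 form of these clusters, let-7e (r 0.92) and let-7a (r 0.88), and was only loosely related to miR-99a (r 0.25). The miR-125 paralogs were loosely related too (r 0.31).

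The let-7 forms of the clusters, which share the seed that silences growth genes such as RAS and HMGA2, had no change past the threshold. let-7c stood at 2278%, 2030% and 1983% on the non-loading arrays and at 1772%, 2142% and 1940% on the loading arrays. The groups overlapped, and the log2 change was −0.11 ± 0.10 (SE), with an adjusted p of 0.724 by limma. They did not overlap with quantile normalization (−0.064) or with the total gene signal (−0.21, unadjusted p 0.0703 by limma). The change of let-7c was −0.26 with the percentile over all probes, −0.24 with the slide row as a block and 0.18 under normexp. On the log2 scale the change was 0.06 ± 0.10 (SE) for let-7e and 0.01 ± 0.07 (SE) for let-7a, with adjusted p of 0.825 and 0.972 by limma. Of the 8 let-7 and miR-98 forms tested, 0 passed at an adjusted and 0 at an unadjusted p under 0.05, and 5 had a higher and 3 a lower mean with loading, beside 9.46% of all 148 miRNAs at an unadjusted p under 0.05 and 66.9% with a higher mean. Their median was 0.02, the range ran from −0.16 to 0.06, and the groups did not overlap for 1 form, miR-98, beside 15.5% of all miRNAs.

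The opposite arms were mostly dim. miR-100*, miR-125b-3p, miR-125b* and miR-99b* were detected on 0 arrays, and miR-99a* was detected on 1, a loading array. miR-125a-3p was detected on all 6, at 26.6%, 15.2% and 9.99% on the non-loading and 11.4%, 24.1% and 18.3% on the loading arrays. The groups overlapped widely, with a log2 change of 0.11 ± 0.42 (SE), an interval from −0.92 to 1.14 and an adjusted p of 0.938 by limma. Only 69 of its 120 spots were well above background. miR-351, the other miRNA on the array with the miR-125 seed, was detected on 0 arrays.

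The miRNAs most like the families were found by Pearson r over the 6 arrays among 134 tested miRNAs outside the families and let-7. For the mean of miR-99a, miR-99b and miR-100 they were miR-3562 (r 0.972), miR-196a (r 0.960) and miR-34b (r 0.948), with log2 changes of −0.07 ± 0.56 (SE), 0.0070 ± 0.13 and 0.08 ± 0.13 and adjusted p of 0.972, 0.988 and 0.824 by limma. This mean joins members that ran against each other and is not the pattern of any one of them. For the mean of miR-125a-5p and miR-125b-5p they were miR-31 (r 0.992), miR-322 (r 0.979) and miR-222 (r 0.970). With loading, the log2 change was 0.20 ± 0.07 (SE) for miR-31, 0.20 ± 0.08 for miR-322 and 0.30 ± 0.08 for miR-222, none past the threshold (adjusted p 0.486, 0.486 and 0.451 by limma).

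The labelled cell type was set against miRNA markers. Of 5 mesenchymal markers, 4 were detected on all arrays, and the fifth, miR-145, on 3. Their summed signal was 4943%, 4765% and 4680% on the non-loading arrays and 4699%, 4900% and 4818% on the loading arrays. All 4 skeletal muscle, 5 epithelial, 2 neuronal and 1 liver markers were undetected on all arrays, as were 5 of 6 blood markers. The sixth, miR-223 of myeloid cells, was detected on 5 arrays, at a mean of 6.38% without and 8.23% with loading, a log2 change of 0.40 with an adjusted p of 0.709 by limma. The 6 blood markers together summed to 1.97%, 5.44% and −5.64% on the non-loading arrays and 5.67%, 1.67% and 6.46% on the loading arrays, sums in which undetected markers with values below 0 offset miR-223. miR-126 of endothelial cells was detected on all 6, at 4.91%, 4.59% and 2.77% on the non-loading and 5.05%, 3.91% and 5.36% on the loading arrays, a log2 change of 0.25 with an adjusted p of 0.724 by limma. Their part in the members' changes was not tested.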

How the data were processed

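The deposited files are 1-colour scanner tables from Agilent Feature Extraction (10.7 per the submitters' processing notes, 10.7.3.1 in the file header). They give an intensity per spot, from which the authors' software had subtracted background and which is not scaled between arrays. The series matrix held the same intensity (largest difference 0), and its column medians were −0.0688, 0.0199, −2.03, 0.0533, −0.422 and 0.440 for non-loading and then loading arrays 1 to 3, so it is not centred.

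Control and outlier-flagged spots (2.93% to 4.17% of spots) were left out, and no spot was saturated. The mean over the spots of a probe was taken, and every array was divided by the 75th percentile of 173 probes that all arrays detected, which was 262.6 to 362.2 units. Probes were summed per miRNA, floored at 1.87% of the percentile and taken to log2. A miRNA was tested if detected on all arrays of a group. The arrays had 140 to 186 miRNAs detected, and the number of arrays limits the precision. Groups were compared with limma 3.58.1 (R 4.3.3), with Benjamini-Hochberg adjustment and a threshold of 0.05, and ratios by exact permutation. The limma fit was tested on data simulated with independent noise for each miRNA, so deviations shared by a whole array were not represented.

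The named miRNAs were the 5 members, the other arms, the let-7 forms of their clusters, cell-type markers and the 3 most correlated miRNAs per family. miR-351 was added by its seed. miR-98, let-7b, let-7d and let-7i were named after their values were seen. An array name without an arm suffix was matched to the 5p entry. The members and lists were chosen with earlier results of these data known. Alternatives concerned background correction (normexp, offset 50), scaling, probe summary, floor, detection filter, flagged spots, the test (including the Student–Newman–Keuls comparison that the methods name), array weights, blocks for replicate number and slide position, and each array left out.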

Additional observations from a re-analysis of the deposited data

How the results depend on the processing

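The number of miRNAs with an adjusted p under 0.05, 0 as reported, was 2 with quantile normalization, the brightest probe, detection required on all arrays, flagged spots kept, a robust trend in limma, the methods' test or array weights, and 4 with probes averaged on the log2 scale, when miR-125a-5p (0.22, adjusted p 0.0434) joined them. At an unadjusted p under 0.05 the count, 14 as reported, was 0 with normexp, 8 with normexp and outlying background replaced, 1 with the percentile over all probes, 4 without scaling, 8 with the total gene signal and 6 with a replicate block. It ran from 6 to 17 as each array was left out (7 without loading array 1, 6 without loading array 3).

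Some values changed sign. By limma under normexp they were −0.32 ± 0.67 (SE) for miR-99b, −0.19 ± 0.53 for miR-100 and −0.15 ± 0.53 for miR-125a-5p. They were 0.18 ± 0.53 for let-7c and −0.56 ± 0.83 for miR-125a-3p. Among the ratios under normexp, they were 0.081 ± 0.55 (SE) for miR-99a over miR-99b and −0.13 ± 0.29 for miR-99b over miR-100. They were −0.53 ± 0.86 for miR-125a-5p over miR-125b-5p, −0.42 ± 0.91 for miR-99b over let-7e and −0.26 ± 0.63 for miR-125a-5p over let-7e. Each of these SEs was larger than the size of its value. With the percentile over all probes they were −0.024 for miR-100, −0.046 for miR-125b-5p, −0.093 for let-7e, −0.14 for let-7a and −0.045 for miR-125a-3p. Each of these had an SE of 0.34 by limma. let-7a was −0.053 with quantile normalization, −0.041 without scaling, −0.091 with the total gene signal, where let-7e was −0.040, and −0.0018 with array weights, where miR-125a-3p was −0.034. With probes averaged on the log2 scale, miR-125a-3p was −0.032 and the ratio of miR-99b over miR-125a-5p 0.014. With the slide row as a block, and where computed within row 1, values were −0.036 for miR-100, −0.068 for let-7e, −0.049 for let-7a, −0.48 for miR-125a-3p, −0.060 for miR-125a-5p over miR-125b-5p and 0.17 for miR-99b over miR-125a-5p, while miR-125a-5p was 0.13, miR-125b-5p 0.19 and miR-99b over let-7e 0.36. Set against the median change of all tested miRNAs, the values with the percentile over all probes moved little. Relative to it, miR-100 stood at 0.066, miR-125b-5p at 0.044, let-7e at −0.0027, let-7a at −0.053 and miR-125a-3p at 0.045. As reported they stood at 0.066, 0.044, −0.0023, −0.053 and 0.045 relative to the median. The cause of the changes of sign was not tested.

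With each array left out, changes ran from −0.35 to −0.17 for miR-99a, 0.16 to 0.28 for miR-99b, 0.029 to 0.21 for miR-100, 0.17 to 0.24 for miR-125a-5p and 0.068 to 0.16 for miR-125b-5p, −0.17 to −0.038 for let-7c, 0.0037 to 0.13 for let-7e, −0.027 to 0.041 for let-7a and −0.23 to 0.48 for miR-125a-3p. The ratio of miR-99b over miR-100 ran from −0.057 to 0.25 and that of miR-99b over miR-125a-5p from −0.084 to 0.11. That of miR-125a-5p over miR-125b-5p ran from 0.0042 (without loading array 2) to 0.17, and that of miR-99b over let-7e from 0.030 (without loading array 1) to 0.27 (without loading array 2).

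Deviations of same-numbered arrays correlated at −0.69, −0.47 and 0.11, so the numbers do not pair the arrays, and with the replicate block 0 miRNAs passed the adjusted threshold. Precision is limited by 3 arrays per group on 1 slide.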
